A study of Mus musculus with 3 samples.

Results

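Rag1, Rag2 and Dntt encode the lymphocyte-specific machinery of V(D)J recombination, and the chromatin around them was examined in a cultured mouse model of acute lymphoblastic leukaemia of the pre-B stage. The driver of these cells is Bcr-Abl, a fusion kinase that is always active. The members are the peaks of histone H3 acetylated at lysine 27 (H3K27ac) and of histone H3 trimethylated at lysine 4 (H3K4me3) that share at least 1 bp with either of 2 windows fixed on the mouse build mm9. The Rag window covers 260 kb of chromosome 2 (101300000 to 101560000) and holds Rag1, Rag2 and flanking DNA, and the Dntt window covers 65 kb of chromosome 19 (41085000 to 41150000). They hold 17 of the 47610 peaks in the series, made up of 10 of 29468 H3K27ac peaks and 7 of 18142 H3K4me3 peaks.

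The cells were grown in culture without stimulation or treatment and served for 3 immunoprecipitations followed by sequencing, 1 with an antibody to H3K27ac, 1 with an antibody to H3K4me3 and 1 with control immunoglobulin (IgG). All share the same Bcr-Abl-driven background, and there is no group of normal B cells or of cells without the kinase. Whether the culture is 1 clone, and from which animals it came, is not given in the labels. Each mark was measured in 1 library, so no value below has a replicate error and no test between samples was possible. The number of reads is unknown, and markers of the B lineage were not checked, because no annotation of mm9 was used here.

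Recombination starts when the Rag1 and Rag2 proteins, which act together as an endonuclease, cut DNA beside the V, D and J segments of antigen receptor genes. Rag2 carries a PHD finger that binds H3K4me3. Dntt is terminal deoxynucleotidyl transferase, the polymerase that adds nucleotides without a template at the joined ends. H3K27ac marks active promoters and enhancers, and H3K4me3 is a mark of promoters. In the mouse, Rag expression in B-cell precursors depends on distal enhancers such as Erag, which lies upstream of Rag2.

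The bases upstream of the 3 genes are shown because promoters are where H3K4me3 is known to gather and because they differ in the motifs they hold. They are the 250 bases before the annotated start in RefSeq (GRCm38.p6), written in the direction of transcription. Rag2 and Dntt lie on the plus strand and Rag1 on the minus strand. Capitals mark matches on either strand to the motifs searched.
Rag2: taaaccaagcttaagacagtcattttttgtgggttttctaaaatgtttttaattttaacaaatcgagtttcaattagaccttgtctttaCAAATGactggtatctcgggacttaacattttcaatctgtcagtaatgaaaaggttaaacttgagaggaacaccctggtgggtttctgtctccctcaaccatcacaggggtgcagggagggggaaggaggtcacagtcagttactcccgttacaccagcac
Rag1: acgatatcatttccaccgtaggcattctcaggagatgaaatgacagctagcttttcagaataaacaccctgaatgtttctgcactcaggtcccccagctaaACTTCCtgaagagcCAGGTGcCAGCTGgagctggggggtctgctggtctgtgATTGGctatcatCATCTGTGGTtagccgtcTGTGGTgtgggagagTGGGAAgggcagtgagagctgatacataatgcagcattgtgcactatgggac
Dntt: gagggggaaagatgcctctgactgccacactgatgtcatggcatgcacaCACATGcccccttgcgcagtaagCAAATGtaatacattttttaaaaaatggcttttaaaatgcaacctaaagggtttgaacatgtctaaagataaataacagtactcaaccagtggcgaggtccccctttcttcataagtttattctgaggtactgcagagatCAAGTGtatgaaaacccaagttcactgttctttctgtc

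The Rag1 sequence held the most matches. It contained the E-box CANNTG at positions -135, -128 and -85, given as the leftmost base counted back from the start, and the middle one was CAGCTG, one of the forms that E proteins such as E2A bind. It contained the RUNX motif TGTGGT at -81 and -67, the first of which overlaps the E-box at -85. It also contained 1 match each to the NF-Y motif CCAAT (at -97, on the opposite strand), the ETS motif GGAAGT (at -149, on the opposite strand) and the Ikaros motif TGGGAA (at -52). Across the 32851 RefSeq promoter entries of the same length, CANNTG was found in 66.2%, CAGCTG in 4271 entries, TGTGGT in 14.0%, CCAAT in 33.8%, GGAAGT in 19.7% and TGGGAA in 21.6%.

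The other promoters held E-boxes alone, 1 in Rag2 at -161 and 3 in Dntt at -201, -178 and -38. None of the 3 sequences matched the palindromic EBF motif, the STAT motif TTCNNNGAA, the forkhead motif TGTTTAC, the SP1 motif GGGCGG or the TATA box TATAAA, letters that occur in 0.779, 7.02, 3.17, 32.7 and 12.4% of entries. These are matches of letters and not measured binding. All 3 promoters had fewer CpG dinucleotides than most, with 3 in Rag2, 3 in Rag1 and 2 in Dntt, against a median of 6 over all entries. Of all entries, 37.8% had 3 or fewer and 29.0% had 2 or fewer.

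In the RefSeq table of GRCm38.p6 the protein-coding genes run in the order Lrrc4c, Iftap, Rag2, Rag1, Traf6 and Prr5l. Rag2 and Rag1 are transcribed towards each other, so their starts lie on the outer sides of the pair, and Iftap overlaps Rag2 on the other strand. Traf6, a ubiquitin ligase of interleukin-1 and Toll-like receptor signalling, is transcribed away from Rag1. On chromosome 19 the order is Blnk, Dntt, Opalin and Tll2. Only this order was taken from the table. The peaks are on mm9, so no peak is assigned to a start site, and they are named by position below.

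In the Rag window the marks lay together at every peak of the lists as deposited, but which mark was the stronger call for its list changed along the window. It held 5 peaks of each mark, and 5 of 5 H3K27ac peaks overlapped H3K4me3 (lower exact 95% limit 47.8%), as did 52.3% of the whole H3K27ac list. All 5 H3K4me3 peaks overlapped H3K27ac, as did 86.1% of the whole H3K4me3 list. With 5 peaks a mark, these shares are not distinguishable from those of the lists for H3K4me3, and for H3K27ac the interval includes 52.3% as well. The pairing rests on weak calls: when peaks scoring under 100 were left out of each list, 4 of 5 H3K27ac peaks overlapped H3K4me3, the exception being the leftmost group's main peak. With the H3K27ac list shortened to its 18142 highest scores, a choice made after seeing the data, the window kept 2 H3K27ac peaks covering 1.88% of it, and both middle groups had H3K4me3 alone. The peaks fell in 4 groups separated by 20.8 to 27.6 kb, as the map of the Rag window shows.

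The peak score is the authors' value, and no header defines it. If it has the form described with the processing, a higher one means a call less likely under the caller's background model. A score of exactly 3100, called the ceiling here, is shared by 6863 H3K27ac and 9042 H3K4me3 peaks, and the highest score in either list is 3233. Scores rank peaks within 1 list and are not compared in size between the lists.

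**Figure D1:**
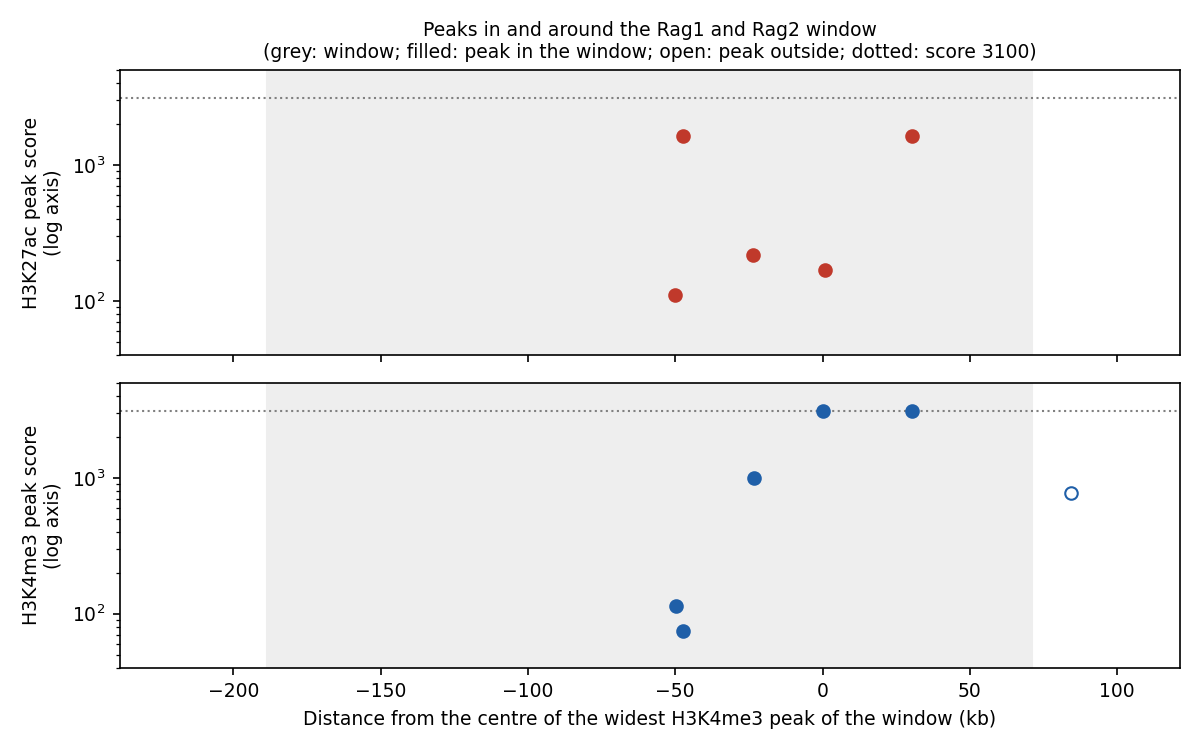
Peak score on a log axis against distance in kb from the centre of the 3240 bp H3K4me3 peak, with H3K27ac above and H3K4me3 below; bars span peak widths, dots mark centres, grey is the window. The 2 highest H3K27ac scores, 1653 and 1639, stand at the outer groups, whereas H3K4me3 reaches 3100 at the 2 groups on the right.

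The leftmost group was acetylated with only weak H3K4me3. Its main H3K27ac peak (101439629 to 101442720) was 3092 bp wide and scored 1653, higher than 64.1% of the list and wider than 80.9% of it. The only H3K4me3 peak it met (101440871 to 101441531) was 661 bp wide and scored 75.25, higher than 7.32% of its list. That peak lay inside the acetylated one and covered 21.4% of it, leaving 2431 bp of H3K27ac without H3K4me3.

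Most H3K27ac peaks scoring at least as high had stronger H3K4me3. Of the 10584 H3K27ac peaks with scores of 1653 or more, 1551 (14.7%, interval 14.0 to 15.3%) had no H3K4me3 or none scoring above 75.25. That count joins peaks without any H3K4me3 to those with a weak call, so it does not show how common a weak call was. The 10584 include the 7106 H3K27ac peaks at or above the ceiling. A small peak of each mark stood to the left. The H3K27ac peak (101438191 to 101439018) ended 610 bp before the main one and was 828 bp wide with a score of 111, and the H3K4me3 peak (101438472 to 101439358) was 887 bp wide with a score of 113. Both marks were thus near the weak end of their lists there, with 19.8% of H3K27ac peaks and 13.9% of H3K4me3 peaks scoring lower.

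The second group carried both marks, with H3K27ac placed lower in its list than H3K4me3 in its own. The H3K27ac peak (101464099 to 101466135) was 2037 bp wide and scored 219, above 31.6% of the list. The H3K4me3 peak (101464482 to 101466276) was 1795 bp wide and scored 1001, with 10893 of 18142 peaks at or above that score. The marks shared 1654 bp, which was 81.2% of the H3K27ac peak and 92.1% of the H3K4me3 peak. Among the 10893 H3K4me3 peaks with a score at least as high, 651 (5.98%, interval 5.54 to 6.44%) had no H3K27ac or none scoring above 219. Of those 10893 peaks, 9117 stood at or above the ceiling. The share therefore does not show how common such weak H3K27ac is at H3K4me3 peaks scoring near 1001.

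In the third group the weight lay on H3K4me3. Its H3K27ac peak (101488797 to 101490311) was 1515 bp wide and scored 171, above only 27.5% of the list. Its H3K4me3 peak (101487077 to 101490316) was 3240 bp wide, wider than 87.3% of the list, and scored at the ceiling. Ceiling scores are common in this mark, at 50.3% of the list, but H3K27ac this weak beneath them was not. Of the 9117 H3K4me3 peaks with ceiling scores or higher, 110 (1.21%, interval 0.993 to 1.45%) had no H3K27ac or none scoring above 171. The median of the best H3K27ac score at those 9117 peaks was 3100 and the 5th percentile was 492.

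The acetylation of the third group was also confined to 1 side of the methylated stretch. The H3K27ac peak lay wholly inside the H3K4me3 peak, ended 5 bp before its right end and began 1720 bp after its left end. H3K27ac covered 46.8% of the H3K4me3 peak, against a median of 90.3% over all ceiling-scoring H3K4me3 peaks. A share of 46.8% or less was found in 88 of those 9117 peaks (0.965%, interval 0.775 to 1.19%). Both measures rest on the same H3K27ac call and are not independent of each other.

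The rightmost group carried strong calls of both marks. It lay on the side of the window where the gene order places Traf6, and it was not assigned to any gene. The H3K27ac peak (101518193 to 101519991) was 1799 bp wide with a score of 1639, above 63.9% of the list. The H3K4me3 peak (101517922 to 101520184) was 2263 bp wide with a ceiling score, and it contained the H3K27ac peak whole. Of the 9117 ceiling-scoring H3K4me3 peaks, 23.0% had no H3K27ac or none scoring above 1639, and 55.6% had H3K27ac at or above the ceiling.

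**Figure D2:**
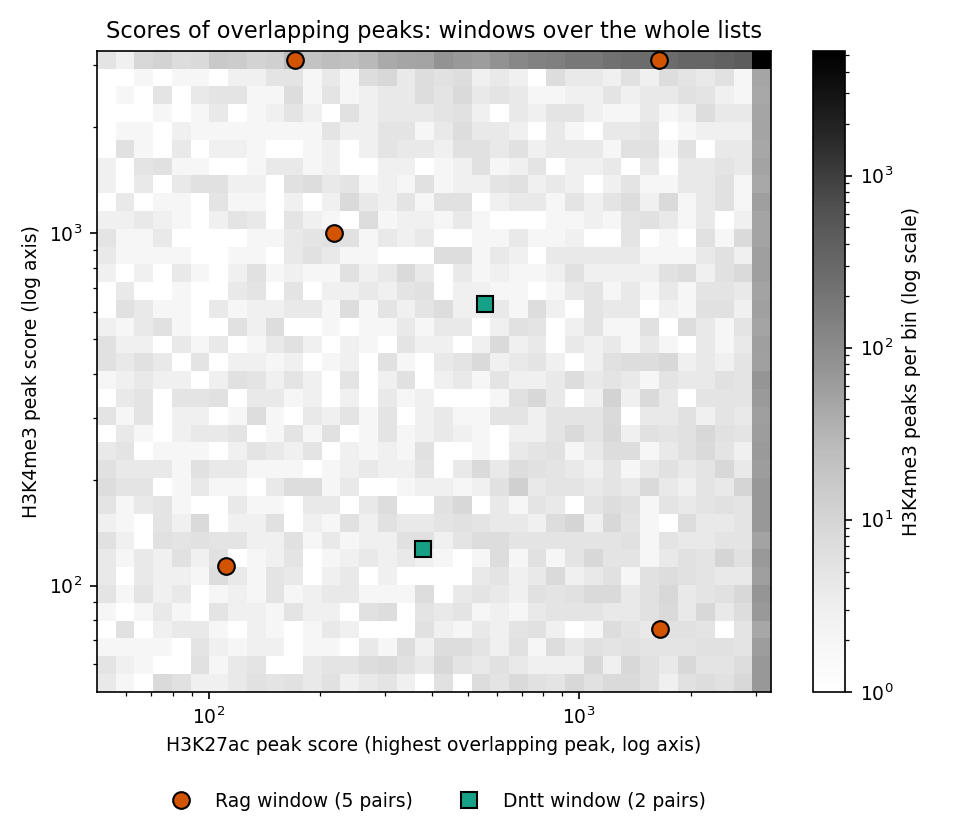
Score of each H3K4me3 peak against that of the highest-scoring H3K27ac peak it overlaps, both on log axes; grey shading counts all overlapping H3K4me3 peaks per bin, circles are the 5 pairs of the Rag window and squares the 2 pairs of the Dntt window. The circle at a H3K27ac score of 171 and a H3K4me3 score of 3100 lies in the left part of the top row. Bins there hold fewer peaks than those at the right end of the same row. The circle at 1653 and 75.25 lies near the lower right corner.

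The Dntt window differed in arrangement, with more closely spaced H3K27ac peaks. They covered a larger share of this shorter window but a smaller length than in the Rag window. It held 5 H3K27ac peaks and 2 H3K4me3 peaks. Of the H3K27ac peaks, 2 of 5 overlapped H3K4me3 (interval 5.27 to 85.3%), a share that cannot be told from the 52.3% of the list at this number. Both H3K4me3 peaks overlapped H3K27ac. Of the window, H3K27ac covered 10.9% and H3K4me3 covered 3.60%, and the marks shared 2.12 kb. In the Rag window those shares were 3.57% and 3.40%, with 6.18 kb in common. The shares depend on how the windows were drawn, at 65 and 260 kb. In length, H3K27ac covered 7.08 kb of the Dntt window and 9.27 kb of the Rag window. H3K4me3 covered 2.34 kb and 8.85 kb.

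The best-marked location with both marks in the Dntt window was modest in each list. Its H3K27ac peak (41104916 to 41106500) was 1585 bp wide and scored 557, above 46.3% of the list. Its H3K4me3 peak (41104694 to 41106366) was 1673 bp wide and scored 631, above 35.7% of the list. The overlap of 1451 bp was 91.5% of the H3K27ac peak and 86.7% of the H3K4me3 peak, so the marks nearly coincided. Neither mark reached the ceiling anywhere in this window.

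The second location with both marks was weaker in H3K4me3. The H3K27ac peak (41089693 to 41091289) was 1597 bp wide with a score of 380, and the H3K4me3 peak inside it (41090535 to 41091201) was 667 bp wide with a score of 127. Of the H3K27ac list 40.5% scored lower than the first of these, and of the H3K4me3 list 15.6% scored lower than the second.

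The strongest acetylation of the Dntt window carried no H3K4me3. The rightmost H3K27ac peak (41112260 to 41114790) was 2531 bp wide and scored 1464, above 61.9% of the list, and lay 5.89 kb from the nearest H3K4me3 peak. Of the 11225 H3K27ac peaks scoring at least as high, 1557 (13.9%, interval 13.2 to 14.5%) had no H3K4me3. That set includes the 7106 H3K27ac peaks at or above the ceiling, so the share is not one for peaks near 1464. Among the 14059 H3K27ac peaks without H3K4me3, 11.1% scored as high and 2245 were as wide.

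The other acetylated locations without H3K4me3 were lower in score. The peak at the left edge of the window (41083255 to 41085645) was 2391 bp wide and scored 489, and only 646 bp of it lay inside the window. The next peak to its left (41081914 to 41082887) scored 160, ended 2.11 kb outside the window and was therefore not a member. The remaining member (41096901 to 41097616) was the weakest H3K27ac peak of both windows, 716 bp wide with a score of 80.25.

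**Figure D3:**
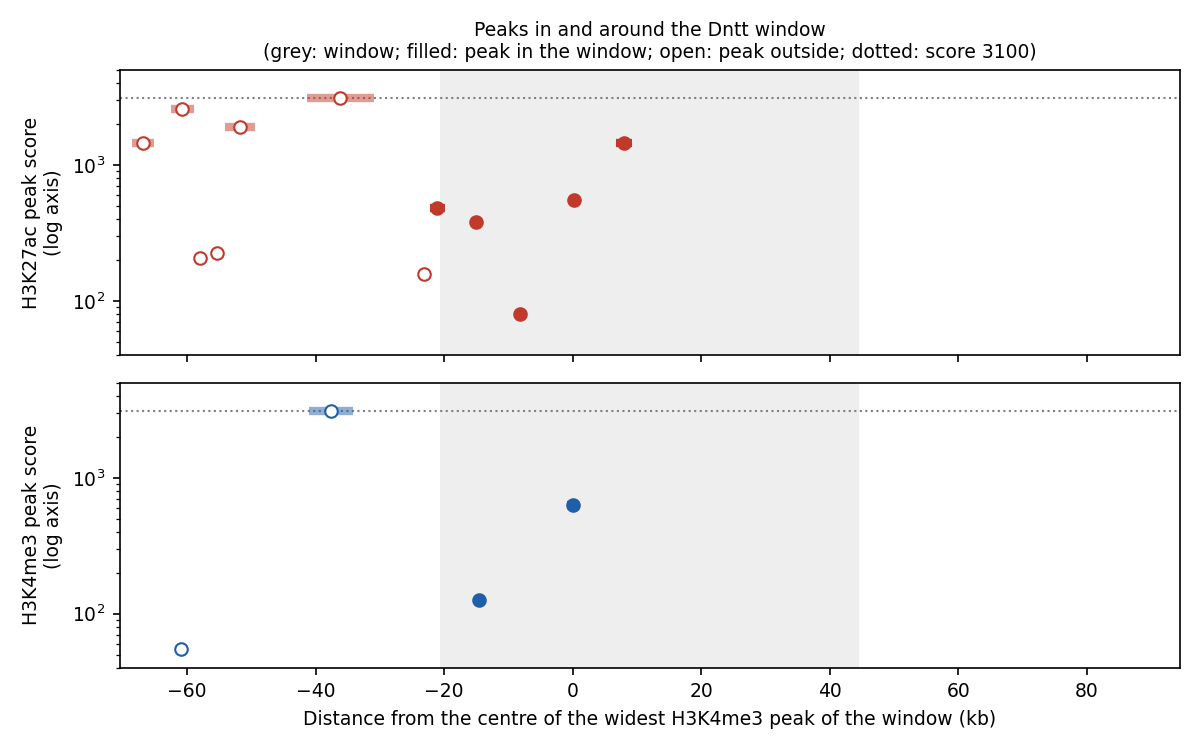
Peak score on a log axis against distance in kb from the centre of the 1673 bp H3K4me3 peak, with H3K27ac above and H3K4me3 below; bars span peak widths, dots mark centres, grey is the window and open dots are peaks outside it. The 5 H3K27ac members continue a run of acetylated peaks to the left, whose widest, 10545 bp, scores 3100 and overlaps a H3K4me3 peak of the same score, and no peak lies to the right within 50 kb.

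The windows differed in how far their acetylated peaks joined up. H3K27ac peaks no more than 12.5 kb apart were stitched into 16134 regions and ranked by summed peak length. All 5 H3K27ac members of the Dntt window belonged to 1 region of 12 peaks (41036970 to 41114790) that spanned 77.8 kb and summed to 34.8 kb. It ranked 61 of 16134 and was among the 1032 long regions, those above 11.2 kb, the point where the scaled rank curve reaches a slope of 1. The part inside or touching the window summed to 8.82 kb, or 25.3% of the region, so the length came mostly from the 7 peaks outside it. Those 7 peaks summed to 26.0 kb by themselves, which is above the limit, whereas the 5 members by themselves were below it. With a stitching distance of 5000 bp the longest region touching the window held 3 peaks and 4.96 kb and ranked 3113 of 20625.

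The Rag window held no long region. Its H3K27ac peaks formed 4 regions, which summed to 3.92, 2.04, 1.51 and 1.80 kb from left to right, against a median of 2.45 kb over all regions. The longest of them, the leftmost group, ranked 4791 of 16134.

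Peak numbers like those of the windows were found in many places, least often for H3K27ac in the Dntt window. Chromosomes were divided into tiles of the length of each window, and tiles with at least 1 peak of either mark were kept. Of 6058 tiles of 260 kb, 41.1% held 5 or more H3K27ac peaks and 22.6% held 5 or more H3K4me3 peaks. Of 13857 tiles of 65 kb, 11.0% held 5 or more H3K27ac peaks and 33.1% held 2 or more H3K4me3 peaks. The windows were set around genes and the tiles were not, so these shares describe scale only. With empty tiles included they fell to 25.2 and 13.8% for the Rag window and to 3.85 and 11.6% for the Dntt window.

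**Figure D4:**
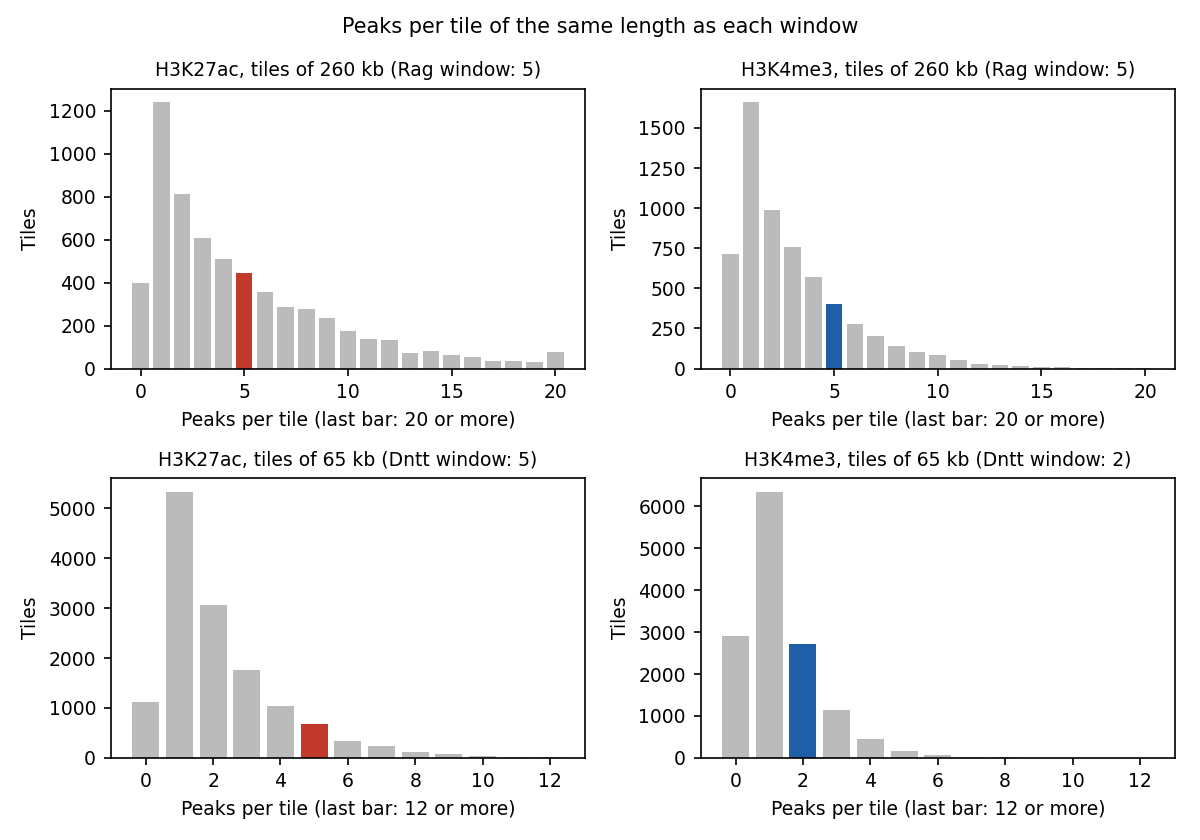
Number of tiles, on a linear axis from 0, by the number of peaks they hold, for H3K27ac on the left and H3K4me3 on the right and for tiles of 260 kb above and 65 kb below; the coloured bar is the count in the window of that length. The windows' counts of 5 and 5 (Rag) and 5 and 2 (Dntt) are matched or exceeded by 41.1, 22.6, 11.0 and 33.1% of tiles, the lowest of these being H3K27ac in the Dntt window.

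Over both windows the members were of ordinary median width, and their median scores were below those of their lists. The 10 H3K27ac members had a median width of 1698 bp, against 1782 bp in the list, and a median score of 434, against 710. The 7 H3K4me3 members had a median width of 1673 bp, against 1807 bp, and a median score of 631, against 3100. None of the 10 H3K27ac members reached the ceiling, where 24.1% of the list stood. Of the 7 H3K4me3 members 2 did, against 50.3%. With so few members, these counts cannot be told from the shares of the lists. Both H3K4me3 members at the ceiling lay in the Rag window.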

How the data were processed

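Peaks were called by the authors with MACS on the mouse build mm9, per the submitters' processing notes; the MACS version, aligner, read filtering and control library of each call are not stated in the labels. Each deposited list holds 1 library, unpooled, with chromosome, start, end and a score per peak. No header defines the deposited score. The names of the deposited files carry a p threshold of 1e-05, which gives 50 as 10 times the negative log10, and the lowest score in both lists is 50.01; this match is the only ground for reading the score on that scale, the form MACS writes. No IgG peak list was analysed here.

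Overlap means at least 1 bp shared. Percentages carry exact 95% Clopper-Pearson intervals, which cover counting error only and treat peaks as independent. Positions are counted from 1. Overlap, joining, stitching and tiling were tested on simulated data. Promoter sequences and gene order came from RefSeq tables of GRCm38.p6, in which all 3 genes were matched; no coordinates were carried between builds, and the planned list of other recombination genes was not analysed. The windows, genes, motifs and alternatives were chosen with earlier results of these data known, and CpG content was counted after the peaks were seen. All peaks in the windows are named. Python 3.11.15, NumPy 2.4.6, pandas 2.3.3, SciPy 1.17.1 and matplotlib 3.10.9 were used.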

Additional observations from a re-analysis of the deposited data

How the results depend on the processing

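Among 60 values under other settings, 43 lay inside the main value's interval (counts, lengths and covered shares within 1.5 times) and 17 did not. For the overlap shares that interval rested on 5 H3K27ac peaks a window, 47.8 to 100% for Rag and 5.27 to 85.3% for Dntt. Few outcomes could fall outside it, so lying inside says little about how stable these shares are. No paired analysis was possible because each mark had 1 library. With the H3K27ac list shortened to the 18142 highest scores, a choice made after seeing the data, the Rag window kept 2 H3K27ac peaks covering 1.88% of it: those scoring 219 and 171, in the 2 middle groups, were lost with the one scoring 111. With the windows widened by 50 kb on each side, the Dntt window held 12 H3K27ac and 4 H3K4me3 peaks. A stitching distance of 5000 bp reduced the longest Dntt region to 4.96 kb. Empty tiles included, the shares of tiles with as many peaks were 25.2% (H3K27ac) and 13.8% (H3K4me3) for the Rag window and 3.85% and 11.6% for the Dntt window. With scores of at least 100 the lists lose their weakest peaks, so the percentages scoring lower than a member must fall; the percentages narrower fell too. For the widest H3K27ac and H3K4me3 peaks of the Rag window, 76.7 and 85.6% were then narrower and 56.3 and 42.9% scored lower; for those of the Dntt window, 64.9 and 38.2% were narrower and 53.7 and 26.9% scored lower. The overlap of H3K27ac with H3K4me3 became 4 of 5 in the Rag window and 2 of 4 in the Dntt window at that threshold. The depth is unknown, so its part in the weak calls was not tested.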

Other observations

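The acetylated run to the left of the Dntt window reached higher scores than the window but was mixed. It lay on the side where the gene order places Blnk, an adaptor of pre-B receptor signalling. Its 7 H3K27ac peaks scored 160 to 3100, against 80.25 to 1464 for the 5 members, and 2 of the 7 overlapped H3K4me3. Those scoring 160, 208 and 225 were weaker than most members. The widest (41064106 to 41074650) measured 10545 bp at the ceiling and contained a H3K4me3 peak of 6855 bp (41064516 to 41071370), also at the ceiling. A second, 3605 bp wide (41042967 to 41046571) with a score of 2593, met only a 667 bp H3K4me3 peak with a score of 55.02. To the right of the last peak in the Dntt window neither mark was called for 222 kb.

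The Rag window bordered one of the longest stretches with neither mark. From its leftmost peak, no peak of either mark was called for 3.65 Mb to the left, the 18th longest of 31406 such stretches, whose median was 16.6 kb. On the right, the next peak was a H3K4me3 peak (101572521 to 101573763) of 1243 bp with a score of 771 and no H3K27ac, 12.5 kb outside the window. The next H3K27ac peak on that side (101620238 to 101623236) scored 3100 and overlapped no H3K4me3. These positions outside the windows were chosen with their values in view.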
